A study of Homo sapiens with 9 samples.

Results

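The RNA levels of 43 genes whose proteins build the centriole or the centrosome were followed in HEK293T cells that overexpressed the kinase PLK2 or a point mutant of it. The 43 were taken from the gene table by symbol, out of 17083 genes listed, and all of them passed the filter on low counts that kept 12924 genes for testing. HEK293T cells descend from human embryonic kidney and express SV40 large T antigen. RNA was measured in 9 cultures. The 3 Vector cultures received an empty FLAG vector, the 3 PLK2 cultures a FLAG-tagged PLK2, and the 3 PLK2(D223N) cultures a FLAG-tagged PLK2 with a substitution in its kinase domain. The labels give all 9 as wild type in genotype and name no other agent. The submitters call the 3 cultures of a group biological replicates. Cells of a transfected line are a model of forced expression, and the level of PLK2 reached here was far above that of the Vector cultures.

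The centriole is a short cylinder of microtubules, and a pair of them surrounded by pericentriolar material forms the centrosome, the main microtubule-organising centre of an animal cell. A new centriole starts beside an old one in each cell cycle, when a scaffold of CEP192 and CEP152 recruits the kinase PLK4, and STIL and SASS6 then form the cartwheel on which the wall is laid. PLK2 is a relative of PLK4, has been reported to act at the centrosome around the start of S phase, and has been reported to phosphorylate CENPJ (also called CPAP), a protein that sets centriole length. These roles belong to the proteins, while the values below are RNA levels only, and neither phosphorylation nor centriole number was measured.

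The RNA of PLK2 itself followed the labels. It was at 3.33, 4.09 and 2.83 CPM (read counts per library size, scaled between libraries by TMM) in Vector replicates 1 to 3, at 13978, 10680 and 12416 CPM in PLK2(D223N), and at 23503, 26239 and 21490 CPM in PLK2. The mutant was therefore present at a lower RNA level than the intact kinase, by 0.94 on the log2 scale (adjusted p = 4.99e-05, edgeR quasi-likelihood test), and any comparison of both constructs holds this difference in level as well as the substitution. Of 5 epithelial marker genes, KRT18 and KRT8 made up most of a summed level that ran from 93.6 to 104 TPM (an abundance unit corrected for transcript length) in Vector, 97.2 to 100.1 in PLK2(D223N) and 96.2 to 97.9 in PLK2, while EPCAM and CDH1 averaged 2.74 and 1.401 TPM. The remaining epithelial marker, CLDN4, averaged 0.548 TPM. Of the 5 kidney and neural-type markers reported for HEK293, INA averaged 4.83 TPM, NEFL 1.05, LHX1 0.564, PAX2 0.270 and NEFM 0.011. The 4 fibroblast markers in the table, of 5 listed, summed to between 3.38 and 4.51 TPM, mostly COL1A1 at 3.13 TPM. The 5 endothelial markers summed to at most 0.37 TPM, and the only immune marker of 5 found in the table, CD68, reached at most 1.28 TPM.

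One library stood apart for these genes. Set against its mean over the 9 libraries, the median of the 43 genes was −0.24 (log2) in Vector replicate 1, where 32 of the 43, and 48.4% of all tested genes, lay below their mean. In the other 8 libraries that median lay between −0.03 and 0.05. Vector replicate 3 had 28 of the 43 below their mean and the other 7 libraries 10 to 16. Vector replicate 1 also had a different relation between transcript level and base composition across all genes. The mean deviation of the 10% of genes lowest in GC content minus that of the 10% highest was −0.40 (log2) in Vector replicate 1, whereas it was 0.14 in Vector replicate 2 and between −0.01 and 0.13 in the remaining libraries. The 43 genes are lower in GC, with a median of 41.5% over the longest coding transcript of each gene, against 48.5% for all tested genes, and 19 of them fall in the lowest of 5 equal bins of GC content (30.2% to 41.0%). In the comparisons with Vector, the calls and values above 0 of the 43, and the differences of genes described singly, are therefore also given from refits. These leave out Vector replicate 1 or remove each library's trends in GC content and transcript length. The counts at an unadjusted p, and of groups that did not overlap, come only from all 9 libraries as first fitted.

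**Figure D1:**
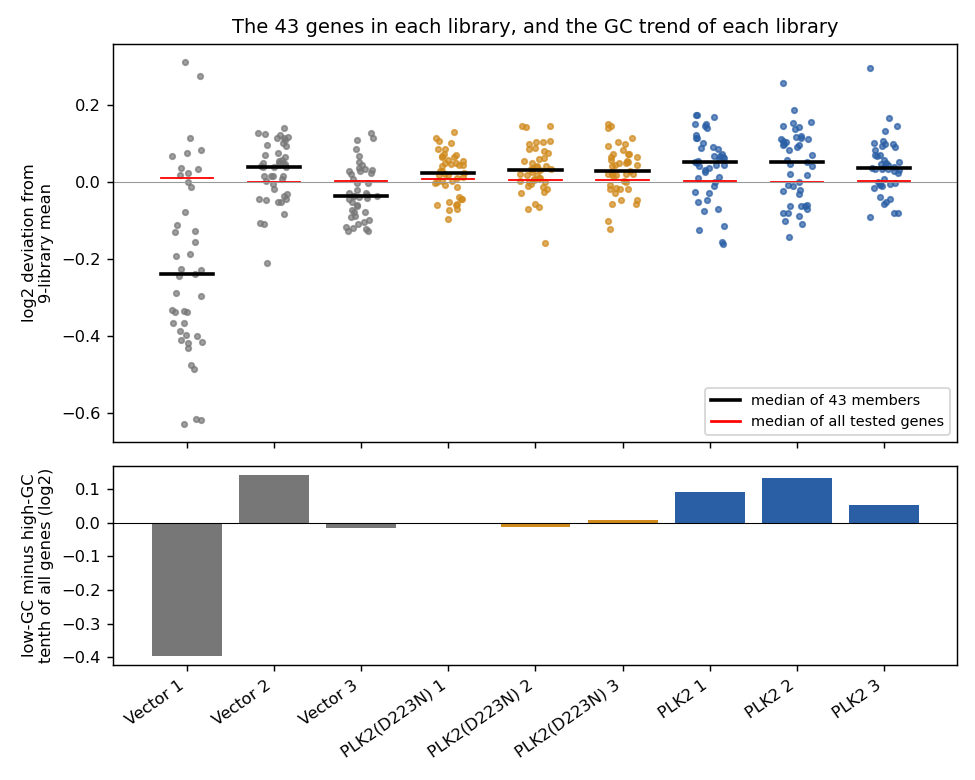
The upper panel shows, for each of the 9 libraries, the log2 deviation of each of the 43 genes from its own 9-library mean (points), with the median of the 43 (black line) and of all tested genes (red line); the lower panel shows the mean log2 deviation of the 10% of genes lowest in GC minus that of the 10% highest. In Vector replicate 1 the median of the 43 is −0.24 and the bar is at −0.40, and both are the lowest of the 9 libraries.

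All 43 genes were expressed. The highest mean TPM belonged to TUBG1 (134.8 TPM over 9 libraries), which encodes gamma-tubulin, the tubulin that nucleates microtubules. CETN2, a calcium-binding centrin of the centriole lumen, followed at 87.3 TPM, and ODF2, a protein of the appendages of the mother centriole, at 74.3 TPM. The ranges of CETN2 and ODF2 over the 9 libraries overlapped, at 76.6 to 97.4 and 69.7 to 79.0 TPM, while the lowest TUBG1 value (123 TPM) lay above both. NINL, a ninein-like protein that binds gamma-tubulin, was lowest at 8.32 TPM. SPICE1, which takes part in centriole duplication, and CEP131, a protein of the satellites around the centrosome, stood next at 10.1 and 10.2 TPM, and their ranges of 8.15 to 11.5 and 9.16 to 11.3 TPM overlapped each other and that of NINL (7.54 to 9.32 TPM).

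**Figure D2:**
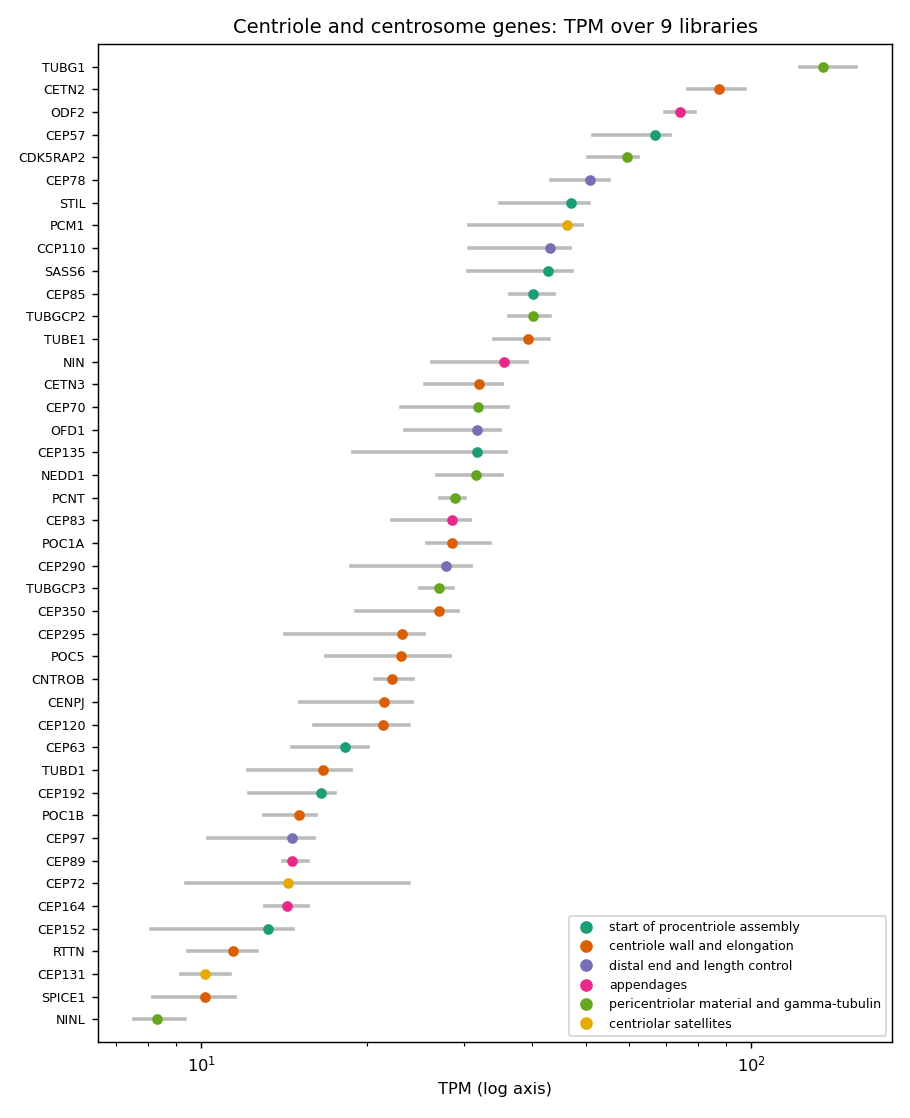
Mean TPM of each of the 43 genes over 9 libraries (point, log axis) with the lowest and highest library (grey bar), coloured by the gene's role. TUBG1 is at the top at 134.8 TPM and NINL at the bottom at 8.32 TPM, and most neighbours in this order have overlapping ranges.

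In PLK2 against Vector, 1 of the 43 genes, POC5, passed the test, and it was higher. Of all 12924 genes tested, 0.511% were called at an adjusted p below 0.05, and 0.480% were called higher. The 43 were chosen with earlier results of these data known, so their count beside these shares is no test of the list. The fitted changes of the 43 leaned upward: 32 were above 0, with a median of 0.10 (log2) and a range from −0.27 to 0.45, while the median over all genes was −0.004, with 48.9% above 0. At an unadjusted p below 0.05 there were 14 higher and 1 lower among the 43, against 9.56% and 6.81% of all genes. PLK2 and Vector libraries did not overlap in 10 of the 43, with PLK2 above in 8 and below in 2, and this held for 20.1% of all genes. The upward lean moved with Vector replicate 1 and with GC content. Without that library the median was 0.04 with 30 above 0, against 0.0009 and 50.4% above 0 over all genes. After removal of the GC content and length trends the median was 0.05 with 30 above 0, against −0.02 and 41.7% above 0 over all genes. With both done it was 0.02 with 25 above 0, against −0.02 and 42.7% above 0 over all genes.

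Among the 8 genes that start a new centriole, 7 had values above 0 in PLK2 against Vector (median 0.20) and none passed the test. With the trends removed 7 were still above 0 (median 0.08). CEP152, which with CEP192 positions PLK4 on the mother centriole, was at 25.2, 40.0 and 36.4 CPM in Vector, 40.5, 40.1 and 43.02 CPM in PLK2(D223N), and 42.7, 42.8 and 41.5 CPM in PLK2. Vector replicate 1 was the lowest library, and the PLK2 and Vector libraries did not overlap. The difference was 0.33 (log2, SE 0.12, adjusted p = 0.201 by edgeR) in PLK2 and 0.29 (SE 0.12, adjusted p = 0.574) in PLK2(D223N) against Vector. Without Vector replicate 1 these differences were 0.15 and 0.11, and with the trends removed they were 0.24 (adjusted p = 0.0728) and 0.21. CEP57, a partner of CEP63 and CEP152 in the ring around the mother centriole, was at 86.1, 109 and 99.4 CPM in Vector, 110, 109 and 104 CPM in PLK2(D223N), and 111, 116 and 109 CPM in PLK2. Its difference of 0.20 (SE 0.07, adjusted p = 0.210) in PLK2 against Vector became 0.07 (SE 0.04, adjusted p = 0.307) with the trends removed and 0.11 without Vector replicate 1. The cartwheel genes STIL and SASS6 had values of 0.20 each, and CEP135, which links cartwheel and wall, 0.30, none of which passed. Leaving out Vector replicate 1 gave 0.08 for STIL, 0.08 for SASS6 and 0.12 for CEP135, and removing the trends 0.13, 0.05 and 0.16. CEP85, a regulator of STIL, was the 1 gene of this group below 0, at −0.05, and was at 0.002 with the trends removed.

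The wall and elongation genes held the only call. POC5 (NCBI gene 134359, chromosome 5, 75674124 to 75717481, minus strand, GRCh38 in GENCODE release 29) encodes a centrin-binding protein of the inner scaffold of the centriole, needed for full-length centrioles. It was at 18.2, 19.9 and 21.8 CPM in Vector, 23.1, 22.04 and 22.3 CPM in PLK2(D223N), and 26.02, 27.6 and 28.3 CPM in PLK2. The 3 groups did not overlap: every PLK2 library was above every PLK2(D223N) library, and every one of these above every Vector library. As means, these were 20.0 ± 1.79, 22.5 ± 0.55 and 27.3 ± 1.18 CPM (SD, n = 3 each). POC5 RNA rose 1.37-fold in PLK2 against Vector (0.45 on the log2 scale, SE 0.08, 95% interval 0.29 to 0.61, adjusted p = 0.0113, edgeR). With the trends in GC content and length removed the difference was 0.36 (SE 0.07, adjusted p = 0.00223). The call did not hold in every fit. The adjusted p was 0.104 without PLK2 replicate 2, 0.0840 without PLK2 replicate 3, 0.0735 in a fit to the 6 libraries compared and 0.103 by limma on log2(TPM + 1), with values between 0.42 and 0.45 in these 4. In PLK2(D223N) against Vector the difference was 0.17 (SE 0.08, adjusted p = 0.574), and in PLK2 against PLK2(D223N) it was 0.28 (SE 0.07, 95% interval 0.12 to 0.44, adjusted p = 0.297). Against Vector, leaving out Vector replicate 1 gave 0.38 in PLK2 and 0.10 in PLK2(D223N). The difference between both constructs passed without Vector replicate 1 (0.28, adjusted p = 0.00778), when 2.43% of all genes were called in place of 0.162%, and in a fit to its own 6 libraries (0.28, adjusted p = 0.00341), when 3.92% were. This difference did not pass with the trends removed (0.24, adjusted p = 0.0829, edgeR) or by the DESeq2 Wald test (adjusted p = 0.651). Nor did it pass by edgeR as any other single library was left out (adjusted p 0.169 to 0.974).

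**Figure D3:**
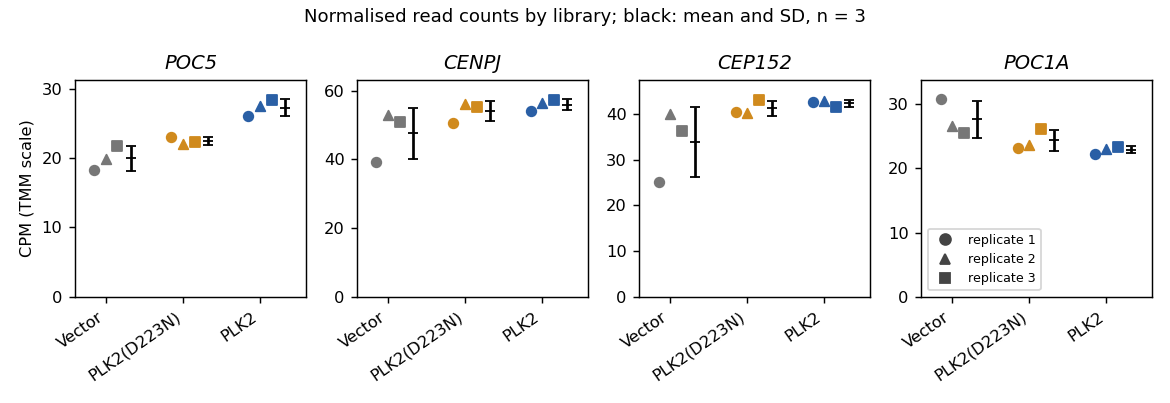
Normalised read counts (CPM on the TMM scale) of POC5, CENPJ, CEP152 and POC1A in each library, with the mean and SD of each group (n = 3, black). The 3 groups of POC5 do not overlap, and Vector replicate 1 is the lowest library for CENPJ and CEP152 and the highest for POC1A.

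The 250 bases before the more upstream of the RefSeq starts of POC5 are shown because POC5 was the gene that passed. They lie at chr5:75717438-75717687 on the minus strand of GRCh38.p14 (RefSeq), have a GC content of 62.8%, and are written 5′ to 3′ with each CCAAT, the box bound by the factor NF-Y, in capitals. The GENCODE model of the gene reaches 75717481, which is inside this window.
POC5: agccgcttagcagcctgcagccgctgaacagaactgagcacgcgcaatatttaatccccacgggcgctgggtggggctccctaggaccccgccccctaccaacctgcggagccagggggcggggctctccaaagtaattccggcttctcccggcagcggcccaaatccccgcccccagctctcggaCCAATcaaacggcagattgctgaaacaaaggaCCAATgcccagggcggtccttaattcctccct
CCAAT, searched on both strands, was found in 45.1% of 51 such windows of 38 of the 43 genes that RefSeq's table held, and in 32.6% of 19655 windows of the genes in the table. The windows of the 43 include up to several per gene. The motifs TTTGAA or TTCGAA, forms of a cell-cycle element, were in 11.8% of the 51 and 11.2% of all windows, and CCGGAAGT, an ETS motif, in 13.7% and 4.90%. TGACGTCA was in 7.84% of the 51 and 2.18% of all windows, TTTGGCGC or TTTCGCGC in 3.92% and 1.36%, and TTTCCCGC in 3.92% and 1.83%. These stand for 4, 2 and 2 of the 51 windows. The other motifs searched, 1 each of NRF1 and NF-kappaB, were in 0 of the 51, and in 1.38% and 0.188% of all windows. Of all motifs searched, the window printed above held CCAAT alone. A match describes the letters and is no measure of binding.

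Of the other wall genes, CENPJ, the reported PLK2 substrate, was at 39.1, 52.9 and 51.0 CPM in Vector, 50.7, 56.2 and 55.4 CPM in PLK2(D223N), and 54.1, 56.3 and 57.4 CPM in PLK2. Vector replicate 1 was again lowest, and the PLK2 libraries lay above the Vector libraries. The difference was 0.23 (SE 0.09, 95% interval 0.04 to 0.43, adjusted p = 0.231, edgeR) in PLK2 and 0.19 (SE 0.09, adjusted p = 0.574) in PLK2(D223N) against Vector. It was 0.11 and 0.06 without Vector replicate 1, and 0.16 and 0.12 with the trends removed. CEP295, needed for the conversion of new centrioles into centrosomes, and CEP350, which binds microtubules and stabilises centrioles, had values of 0.33 (adjusted p = 0.195) and 0.25 (adjusted p = 0.216) in PLK2 against Vector. Those of CEP295 and CEP350 were 0.16 and 0.12 without Vector replicate 1 and 0.24 and 0.15 with the trends removed. POC1A, a protein of the centriole wall, had the lowest value of the 43. It was at 30.8, 26.5 and 25.4 CPM in Vector, 23.2, 23.6 and 26.1 CPM in PLK2(D223N), and 22.3, 23.0 and 23.3 CPM in PLK2. Every PLK2 library lay below every Vector library, and Vector replicate 1 was the highest of the 9. The difference of −0.27 (SE 0.08, 95% interval −0.45 to −0.10) had an adjusted p of 0.143, and was −0.18 without Vector replicate 1 and −0.22 with the trends removed. Across the 14 wall genes 12 values were above 0, with a median of 0.09, and 7 were above 0 (median 0.01) with the trends removed.

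The 5 genes of the distal end and of length control all had values above 0 in PLK2 against Vector (median 0.20), and none passed. Of these, 4 were above 0 (median 0.06) with the trends removed. CEP290, a protein of centriolar satellites and the ciliary transition zone, was at 83.6, 125 and 107 CPM in Vector, 127, 124 and 122 CPM in PLK2(D223N), and 125, 127 and 120 CPM in PLK2. OFD1, which limits the length of the distal end, was at 49.6, 72.6 and 61.6 CPM in Vector, 69.3, 69.5 and 71.9 CPM in PLK2(D223N), and 69.4, 71.6 and 70.2 CPM in PLK2. For both genes Vector replicate 1 was lowest and Vector replicate 2 lay among or above the PLK2 libraries, so the groups overlapped. Their differences were 0.23 (SE 0.10, adjusted p = 0.273) and 0.20 (SE 0.10, adjusted p = 0.304). With the trends removed, CEP290 was at 0.08 and OFD1 at 0.15, and without Vector replicate 1 they were at 0.09 and 0.07.

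Among the 5 appendage genes 2 had values above 0 in PLK2 against Vector, CEP83 and NIN (median −0.01), and 4 had them with the trends removed (median 0.04). CEP83, a base of the distal appendages, was at 44.6, 55.1 and 52.9 CPM in Vector and at 56.7, 58.3 and 57.7 CPM in PLK2, a difference of 0.18 (SE 0.07, adjusted p = 0.236) between groups that did not overlap. This became 0.09 without Vector replicate 1, the lowest library, and 0.07 (adjusted p = 0.383) with the trends removed. NIN, ninein of the subdistal appendages, was at 123, 168 and 151 CPM in Vector and 160, 157 and 166 CPM in PLK2, with a difference of 0.13 (SE 0.08, adjusted p = 0.424) that was 0.01 without Vector replicate 1 and 0.05 with the trends removed.

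The 8 genes of the pericentriolar material and the gamma-tubulin ring were divided, with 4 above 0 and a median of 0.02, and 5 were above 0 (median 0.02) when the trends were removed. NEDD1, which brings the gamma-tubulin ring to the centrosome, was at 49.1, 54.7 and 52.0 CPM in Vector, 58.5, 56.3 and 58.1 CPM in PLK2(D223N), and 63.1, 57.9 and 54.2 CPM in PLK2. Its difference of 0.17 (SE 0.07, adjusted p = 0.230) in PLK2 against Vector was 0.01 with the trends removed and 0.13 without Vector replicate 1. TUBG1 was at 119, 93.0 and 101 CPM in Vector, 93.7, 98.6 and 99.996 CPM in PLK2(D223N), and 91.0, 94.4 and 98.4 CPM in PLK2, and its groups overlapped. The difference was −0.14 (SE 0.08, adjusted p = 0.348), and Vector replicate 1 was the highest library. Leaving it out gave −0.04, and removing the trends −0.09.

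Of the 3 satellite genes 2 had values above 0 (median 0.02), and 3 with the trends removed (median 0.08). PCM1, the scaffold of the centriolar satellites, was at 133, 194 and 182 CPM in Vector and 202, 201 and 194 CPM in PLK2, with a difference of 0.23 (SE 0.10, adjusted p = 0.265). The lowest value was that of Vector replicate 1, without which the difference was 0.08, and with the trends removed it was 0.13. CEP72, a satellite protein with the lowest counts of the named genes, differed by 0.02 (SE 0.10), by 0.10 without Vector replicate 1 and by 0.08 with the trends removed, and was below 0 in several other fits.

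**Figure D4:**
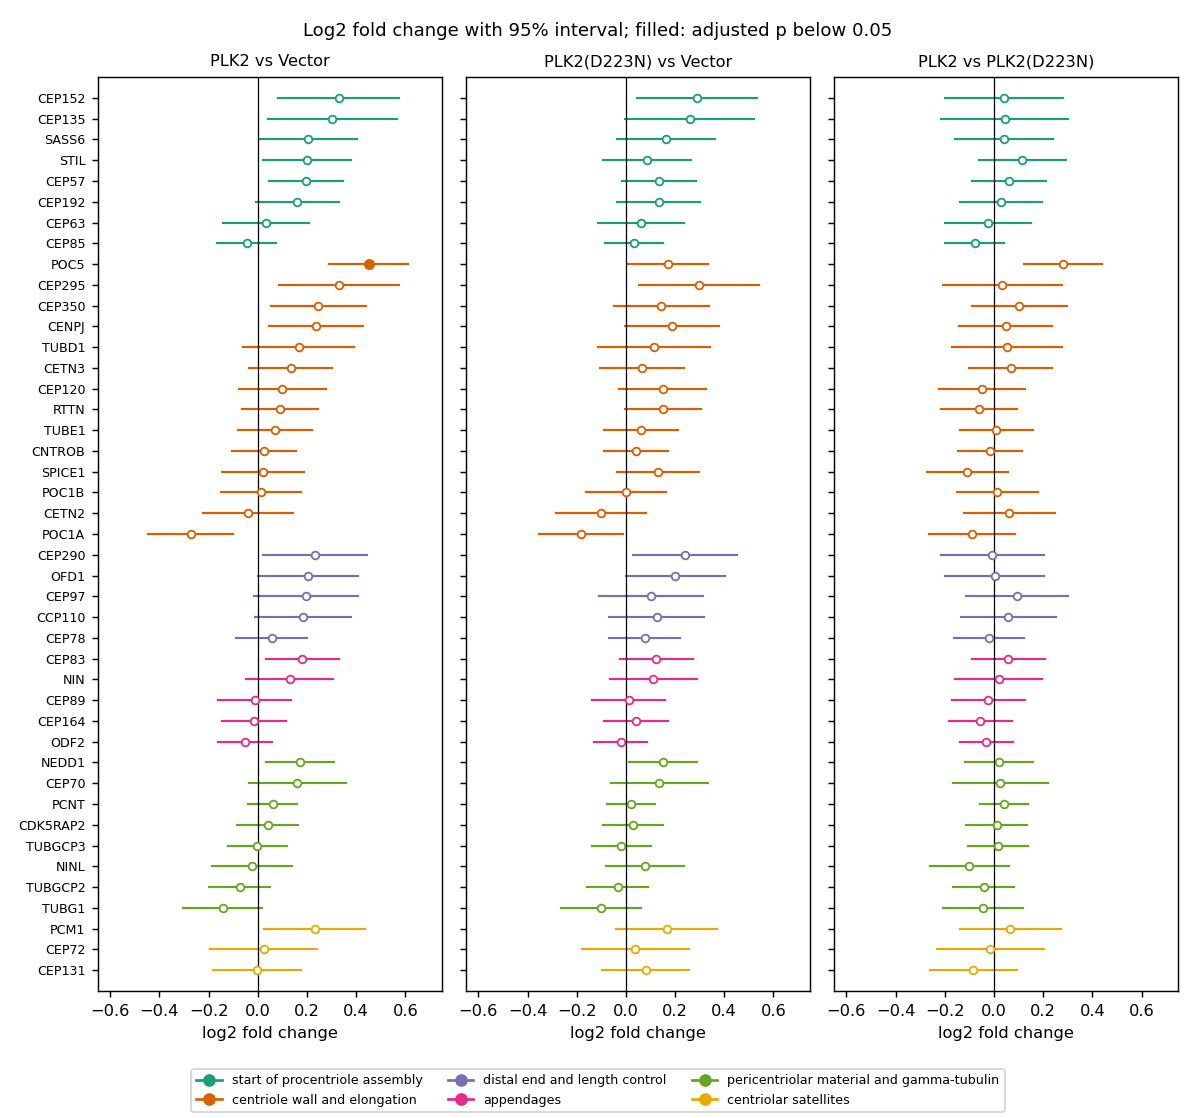
Log2 fold change of each of the 43 genes with its 95% interval (edgeR quasi-likelihood fit to 9 libraries) in the 3 comparisons, coloured and ordered by role. POC5 in PLK2 against Vector is the only filled point, which marks an adjusted p below 0.05.

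In PLK2(D223N) against Vector none of the 43 passed the test, where 0.0232% of all genes did. At an unadjusted p below 0.05 there were 5 higher and 1 lower by edgeR, against 5.22% and 3.30% of all genes, and the DESeq2 Wald test also called none. The values of 37 of the 43 were above 0, with a median of 0.10, against 52.7% and 0.01 over all genes. In 5 genes (CEP192, CEP152, CEP295, POC5 and NEDD1) every PLK2(D223N) library lay above every Vector library, and none of the other 38 had groups that did not overlap, where 13.9% of all genes had them. Without Vector replicate 1 the median was 0.03, with 29 above 0, against 0.005 and 52.5% above 0 over all genes. After the trends were removed it was 0.05, with 31 above 0, against −0.02 and 42.7% above 0 over all genes. This comparison shares its Vector libraries with the one above.

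In PLK2 against PLK2(D223N), in which the Vector libraries enter through the filter, the scaling and the shared estimate of the spread, none of the 43 passed, where 0.162% of all genes did. At an unadjusted p below 0.05 there was 1 higher (POC5) and 0 lower by edgeR, against 2.98% and 3.06% of all genes, and the DESeq2 Wald test called none. The median was 0.02 with 26 above 0, and the values ran from −0.11 (SPICE1) to 0.28 (POC5). On log2(TPM + 1) 10 of the 43 were above 0 and the median was −0.03, beside −0.05 over all genes, of which 24.9% were above 0 there against 47.9% as fitted on counts. The share above 0 was lower on that scale for the 43 and for all genes. Among the 43 the majority changed side, whereas most of all genes lay below 0 in both. The groups did not overlap in 8 of the 43, with PLK2 above in 7 and below in 1, and in 20.5% of all genes. For CENPJ the difference was 0.05 with a 95% interval of −0.14 to 0.24, and for CEP152 it was 0.04 with an interval of −0.20 to 0.28. A fit to these 6 libraries alone called STIL, CEP350 and POC5 higher, where it called 3.92% of all genes.

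The calls in the comparisons with Vector depended on which Vector library was left out. Without Vector replicate 2 the test of PLK2 against Vector called 18 of the 43, 16 higher and 2 lower (POC1A and TUBG1), when it called 12.7% of all genes. That fit sets Vector replicates 1 and 3 alone against PLK2. Without Vector replicate 1 it called POC5 alone, when 2.79% of all genes were called. With the trends removed as well it called CEP295 and POC5, beside 3.16% of all genes, and PLK2 against PLK2(D223N) then had POC5 called (0.24, adjusted p = 0.0164), beside 2.50%. Without Vector replicate 2, PLK2(D223N) against Vector gave 7 calls, all higher (CEP152, SASS6, CEP135, CEP295, CEP350, CEP290 and OFD1), beside 2.66% of all genes, and without Vector replicate 1 it gave none.

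The position of a gene in GC content went with its value. In the lowest of the 5 GC bins the median of all genes was 0.12 in PLK2 against Vector and that of the 19 of the 43 genes there 0.18. In the next bin these were 0.04 and 0.18 (10 genes), and in the 3 bins of higher GC they were −0.04, −0.07 and −0.06 for all genes and −0.01, −0.02 and −0.005 for the 14 genes there. With the trends removed, POC5 was still the only one of the 43 called, while over all genes the calls went from 62 higher and 4 lower to 257 higher (2.00%) and 138 lower (1.07%). The part of GC content and of Vector replicate 1 in the upward values was not tested beyond these refits.

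**Figure D5:**
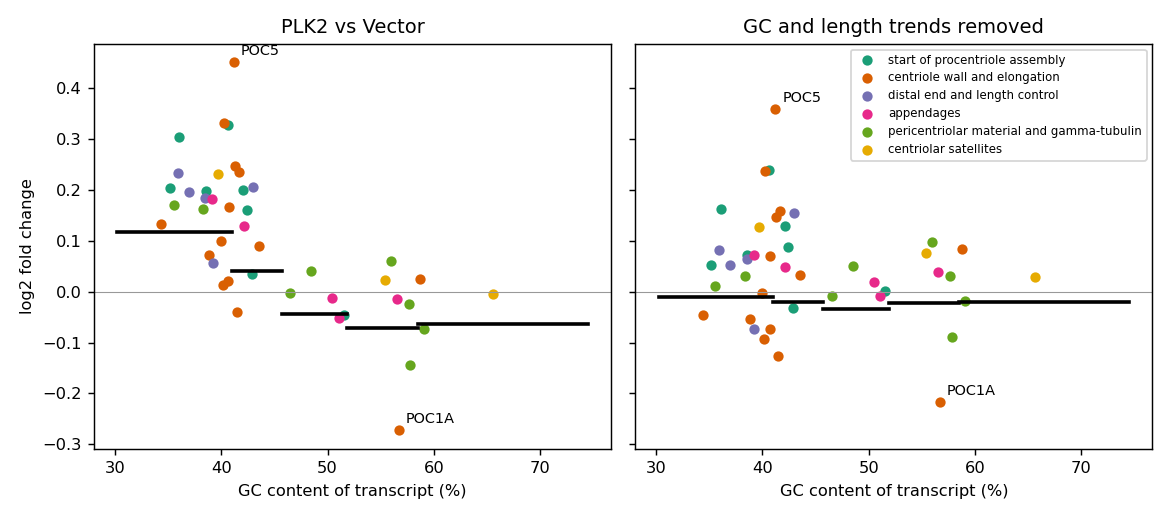
Log2 fold change of the 43 genes in PLK2 against Vector by the GC content of the transcript, as fitted (left) and with each library's trends in GC content and length removed (right), with the median of all tested genes in each of 5 equal GC bins (black bars). The bars run from 0.12 in the lowest bin to −0.06 in the highest on the left and lie between −0.03 and −0.01 on the right, and POC5 is the highest point in both.

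Exons of 9 of the 43 genes share bases with another gene in the table, and since the strand setting of the counting is not given in the sources used here, their counts are less certain. These include CEP290 (with C12orf29), CEP295 (with TAF1D), CEP83 (with PLXNC1), CEP72 (with TPPP) and TUBG1 (with RETREG3), each on the opposite strand. POC5 shared exon bases with none, though its estimated counts were not whole numbers in 5 of the 9 libraries before rounding. Those of SASS6, CEP290, OFD1, CEP83 and TUBG1 were not whole in all 9. On the same strand, SPICE1 shared 2751 and SASS6 292 exon bases with a gene absent from the table.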

How the data were processed

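Poly(A) RNA of 9 HEK293T cultures was isolated by oligo(dT), per the labels' protocols. The submitters' processing notes name RSEM 1.3.1, Bowtie2, DESeq2 1.4.5 and GRCh38.p13. What each tool did, which annotation was used and whether counting was stranded is not given in the sources used here. Deposited in a single table are the authors' estimated counts and TPM per gene; 18 further per-library columns were not used. Totals ran from 14288165 to 16510186 estimated counts. For Vector, 1 library's title has transposed letters, and its column was matched by its number.

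Estimated counts were rounded, filtered with filterByExpr, scaled by TMM and fitted in edgeR 4.0.16 (glmQLFit and glmQLFTest, robust, group only, all 9 libraries). P-values are two-sided, adjusted by Benjamini-Hochberg over 12924 genes, and called below 0.05. Trends in GC content and length (loess, span 0.3) used GENCODE release 29, which gave both for 12852 of these genes. Each gene's longest coding transcript was taken; the median over its coding transcripts was used first and replaced after its results were seen, because that release holds incomplete models, and it was kept as an alternative. limma 3.58.1, DESeq2 1.42.0 and R 4.3.3 served the alternatives. The fit was also run on simulated counts. These held no GC trend and no outlying library, so that run does not cover such features of the data.

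The 43 genes, their role groups, the other gene lists and the alternatives were chosen with earlier results of these data known. Genes given full values were PLK2, members called in any comparison or with trends removed, the 2 of smallest p in each role group in PLK2 against Vector, CENPJ, and the 3 highest and 3 lowest in TPM; further members are named after their values were seen. Intervals and p-values cover the spread between these cultures.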

Additional observations from a re-analysis of the deposited data

How the results depend on the processing

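Of the 43 genes, the number called in PLK2 against Vector (1, POC5) was 0 in the fit to 6 libraries, 0 by limma on log2(TPM + 1) and 0 on log2(TPM + 0.1), where the adjusted p of POC5 was 0.0735, 0.103 and 0.109. It was 2 (CEP295 and POC5) without Vector replicate 1 and with trends removed together, an alternative added after seeing the data in which 3.16% of all genes were called, and ran from 0 to 18 as each library was left out. In PLK2(D223N) against Vector the number (0) ran from 0 to 7 as libraries were left out. In PLK2 against PLK2(D223N) it (0) was 3 in the fit to 6 libraries and 1 (POC5) without Vector replicate 1 and with trends removed, where 2.50% of all genes were called, and ran from 0 to 1 as libraries were left out. The median of the 43 in PLK2(D223N) against Vector (0.10, beside 0.01 over all genes) was 0.01 without Vector replicate 1 and with trends removed, beside −0.01 over all genes. The cause of these shifts was not tested.

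Counts of calls over all genes were 66 in PLK2 against Vector, against 116 by the DESeq2 Wald test, 136 with no filter, 23 in 6 libraries, 395 with trends removed, 287 with the GC trend alone removed and 19 by limma. In PLK2 against PLK2(D223N) they were 21, against 502 in 6 libraries, 96 with trends removed, 71 with the GC trend alone removed, 33 by the DESeq2 Wald test, 35 with no filter and 11 by limma. In PLK2(D223N) against Vector they were 3, and 7 with trends removed. As libraries were left out they ran from 13 to 1656, from 9 to 317 and from 2 to 347 in these comparisons. With the median transcript in place of the longest the trends' removal gave 215 higher and 110 lower, and POC5 stayed the only call among the 43 (0.35, adjusted p = 0.00441).

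The replicate numbers showed no shared pattern between groups. Deviations of same-numbered libraries correlated between −0.11 and 0.13, and those of differently numbered libraries between −0.21 and 0.11. These values cannot show whether the cultures were set up in matched sets. With the replicate block, 1 of the 43 was called in PLK2 against Vector, POC5, and 0 in each of the other comparisons, and the calls over all genes went from 66 to 76, from 3 to 4 and from 21 to 20. The block changed no call among the 43.

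Between 0 and 16 of the 43 values had the other sign in an alternative, and 0 of these passed there. Turns of the 13 genes checked singly follow. In PLK2 against Vector, CEP72 (0.023) was −0.14 on log2(TPM + 1), −0.15 on log2(TPM + 0.1) and −0.029 to 0.099 as libraries were left out. In PLK2(D223N) against Vector, CEP72 ran from −0.0047 to 0.11, NIN from −0.0043 to 0.21 and TUBG1 from −0.18 to 0.0067 as libraries were left out, and NIN was −0.0061 without Vector replicate 1 and with trends removed. In PLK2 against PLK2(D223N), with libraries left out, CEP290 ran from −0.023 to 0.019, CEP72 from −0.083 to 0.055, NEDD1 from −0.038 to 0.073, NIN from −0.00062 to 0.037 and OFD1 from −0.0080 to 0.021. CEP290 was 0.0036 with no filter. There, with GC and length trends removed, OFD1 and NEDD1 were −0.0080 and −0.018, also with the replicate block (−0.0082 and −0.019), without Vector replicate 1 (−0.0094 and −0.017) and with the median transcript (−0.0063 and −0.019, and CEP72 0.0079). With the GC trend alone removed, OFD1 was −0.015, NIN −0.0027, NEDD1 −0.023 and CEP72 0.012. On log2(TPM + 1), CEP152 was −0.0098, OFD1 −0.081, CEP83 −0.030, NIN −0.048, NEDD1 −0.023 and PCM1 −0.0033, and on log2(TPM + 0.1) −0.010, −0.083, −0.030, −0.049, −0.023 and −0.0034. On the TPM scale the median over all genes in this comparison moved too, from −0.005 to −0.053 on log2(TPM + 1). With 3 cultures a group and changes mostly under 0.4 (log2), a value that missed the threshold does not show that a gene was the same in both groups.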

Other observations

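A further list of 80 centrosome genes was drawn up by function, of which 79 were in the table and tested in the same fit. It had 0 genes called in PLK2 against Vector, 0 in PLK2(D223N) against Vector and 0 in PLK2 against PLK2(D223N). These comparisons called 0.511%, 0.0232% and 0.162% of all genes. At an unadjusted p below 0.05 by edgeR the list had 20 higher and 3 lower, 14 and 0, and 4 and 4. The shares of all genes were 9.56% and 6.81%, 5.22% and 3.30%, and 2.98% and 3.06%. In PLK2 against Vector 59 of the 79 were above 0 (median 0.08), against 48.9% of all genes (median −0.004). The list was not counted without Vector replicate 1. After removal of the GC content and length trends, 49 were above 0 (median 0.04), against 41.7% of all genes (median −0.02). In that fit 6 were called higher in PLK2 against Vector, beside 2.00% of all genes: CCDC66 (0.25, adjusted p = 0.00965), CCDC14, CCDC77, ASPM, TACC3 and CCDC18. ASPM and TACC3 act at the spindle and its poles. TACC3 was also called in PLK2 against PLK2(D223N) in that fit (0.16, adjusted p = 0.0327), as the 1 gene of the 79. That fit called 0.747% of all genes in this comparison. PLK4, the kinase that starts centriole duplication, was at 64.4, 91.4 and 84.8 CPM in Vector, 85.4, 86.8 and 91.8 CPM in PLK2(D223N), and 93.5, 95.6 and 96.5 CPM in PLK2. Its PLK2 libraries lay above all Vector libraries, with a difference of 0.25 (SE 0.09, adjusted p = 0.220, edgeR) as fitted and 0.14 (SE 0.05, adjusted p = 0.122) with trends removed.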
